A study of Mus musculus with 2 samples.

Results

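The NK lectin-like receptors described here are 10 genes of the killer cell lectin-like receptor family, Klra4, Klra7, Klra8, Klra9, Klre1, Klri2, Klrk1, Klrb1c, Klrd1 and Klrg1, chosen by their gene symbols from the 32285 genes measured. All 10 were found and each had UMIs (unique molecular identifiers, one for each captured RNA molecule) in both libraries. The data are droplet single-cell RNA sequencing of dissociated whole uteri of female C57BL/6J mice aged 6 months, in a study of the loss of Prickle1 from the myometrium. One library, labelled control, pooled 3 mice carrying Prickle1 f/f alleles, and the other, labelled cKO, pooled 3 mice carrying Prickle1 f/f with MiC. The labels do not spell out MiC, and list both libraries as wild-type under genotype. Each group has 1 library, which allows no test, so all intervals below are 95% intervals that cover counting error only, and no difference has a replicate check.

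Natural killer (NK) cells are lymphocytes that kill or spare other cells according to the balance of signals from activating and inhibitory receptors on their surface. In the mouse many of these receptors are lectin-like proteins encoded together in one region of chromosome 6, the NK gene complex. The Klra genes encode the Ly49 receptors, which bind MHC class I molecules and are switched on in different combinations in different NK cells. In the uterus NK cells are known for their expansion and vessel remodelling in pregnancy, and they include circulating and resident subsets.

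The members were grouped by role. Klra4 (Ly49D) and Klra8 (Ly49H) are activating Ly49 receptors that signal through the adaptor Tyrobp, whereas Klra7 (Ly49G) and Klra9 (Ly49I) are inhibitory ones. Klrd1 encodes CD94, which pairs with products of the Klrc genes to bind the non-classical MHC molecule encoded by H2-T23. Klrk1 encodes NKG2D, an activating receptor for stress-induced ligands that signals through Hcst. Klrb1c encodes NK1.1, an activating receptor widely used to mark mouse NK cells. Klre1 and Klri2 encode partner chains of one heterodimer, and Klrg1 encodes an inhibitory receptor for cadherins such as the product of Cdh1.

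All 10 genes lie on chromosome 6 of GRCm38, the build of the deposited counts, and are annotated as protein-coding. Klra4, Klra8, Klra9 and Klra7 are 4 consecutive protein-coding genes on the minus strand (chr6:130043731-130233322, 190 kb). Klre1, Klrd1, Klrk1 and Klri2 lie in a block of 8 protein-coding genes (chr6:129577905-129740484) that also holds Klrc3, Klrc2, Klrc1 and Klri1. Klrb1c lies at chr6:128778485-128789215 and Klrg1, farthest from the rest, at chr6:122270596-122282882. The kit reads the 3-prime end. The last 500 bases of each member's longest transcript were therefore compared, in windows of 90 bases, with transcripts of the other Klr genes. Other 3-prime ends of the members were not checked. For Klra7, 10.2% of windows also occurred in the pseudogene Klra13-ps, and for Klra9, 14.1% occurred in Klra10, Klra11-ps or Klra3, so reads of these 2 genes can be shared with copies. For the other 8 genes no window was shared with another Klr gene, and genes outside the family were not compared. Among these is Gm44511, a protein-coding gene that overlaps Klrb1c on the same strand and is absent from the genes measured.

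The promoters of Klra4 and Klra8 are shown because these 2 neighbouring activating genes differed between the libraries in unlike ways, as described below. Each sequence runs from 250 bases before to 50 bases after the start site in RefSeq (GRCm38.p6, minus strand), and capitals mark the bases at which the 2 aligned promoters differ. Klra4 lies at chr6:130067222-130067521 and Klra8 at chr6:130129849-130130148.
Klra4: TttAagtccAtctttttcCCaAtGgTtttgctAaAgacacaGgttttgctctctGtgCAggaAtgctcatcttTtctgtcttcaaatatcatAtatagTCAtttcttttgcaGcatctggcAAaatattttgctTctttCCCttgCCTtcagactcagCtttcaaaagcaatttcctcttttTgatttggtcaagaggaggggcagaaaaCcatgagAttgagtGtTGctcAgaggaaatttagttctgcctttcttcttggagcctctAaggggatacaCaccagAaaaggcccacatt
Klra8: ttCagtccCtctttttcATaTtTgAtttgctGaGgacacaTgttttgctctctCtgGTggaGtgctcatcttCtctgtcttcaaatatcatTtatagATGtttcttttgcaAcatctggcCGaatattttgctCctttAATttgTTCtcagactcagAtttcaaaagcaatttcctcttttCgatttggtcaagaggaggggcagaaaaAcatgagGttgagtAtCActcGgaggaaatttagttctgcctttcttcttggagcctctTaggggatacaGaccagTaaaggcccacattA
The pair was identical at 86.0% of 301 aligned positions, and each sequence has 41 bases in capitals. The other 5 pairs among the 4 Klra promoters were identical at 51.5% to 75.8% of aligned positions.

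Promoters were in the RefSeq table for 7 of the 10 members. Klri2, Klrd1 and Klrg1 had no entry. Each was searched on both strands for the core letters of Runx factors, TGTGGT, and of T-box factors, AGGTGT, 2 families that act in NK cell development. The Runx letters occurred once in each of Klre1, Klrk1 and Klrb1c and in none of the 4 Klra promoters, against 16.8% of 32851 promoters of the same length. The T-box letters occurred in 0 of the 7, against 13.7% of all promoters. The 3 promoters with the Runx letters, which are in capitals, follow. They lie at chr6:129577963-129578262 (plus strand), chr6:129623815-129624114 (minus) and chr6:128788592-128788891 (minus).
Klre1: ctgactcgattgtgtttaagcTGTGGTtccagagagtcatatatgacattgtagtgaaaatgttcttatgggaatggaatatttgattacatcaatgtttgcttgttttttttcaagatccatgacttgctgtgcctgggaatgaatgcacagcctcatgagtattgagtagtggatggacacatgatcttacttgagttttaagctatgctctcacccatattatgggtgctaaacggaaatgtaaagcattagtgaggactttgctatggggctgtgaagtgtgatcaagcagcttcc
Klrk1: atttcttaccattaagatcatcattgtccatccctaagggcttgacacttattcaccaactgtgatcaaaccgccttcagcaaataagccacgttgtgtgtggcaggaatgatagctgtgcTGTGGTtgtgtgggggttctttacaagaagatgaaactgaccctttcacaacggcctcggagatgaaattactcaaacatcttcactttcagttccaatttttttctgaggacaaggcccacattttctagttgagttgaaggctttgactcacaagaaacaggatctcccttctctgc
Klrb1c: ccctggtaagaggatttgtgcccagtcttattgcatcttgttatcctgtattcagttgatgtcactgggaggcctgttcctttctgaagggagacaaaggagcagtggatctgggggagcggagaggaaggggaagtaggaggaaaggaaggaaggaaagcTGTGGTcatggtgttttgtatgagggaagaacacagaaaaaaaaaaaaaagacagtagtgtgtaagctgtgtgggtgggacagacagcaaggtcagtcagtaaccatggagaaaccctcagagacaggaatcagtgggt
The letters lie 229, 129 and 89 bases before the RefSeq start site in Klre1, Klrk1 and Klrb1c. The Klre1 and Klrb1c windows lie wholly inside the gene spans of the annotation used for the positions above. These spans are chr6:129577905-129585827 and chr6:128778485-128789215, so the start sites of these 2 genes differ between the annotations. A match is a description of the sequence and shows no binding.

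The libraries held 45035801 UMIs (control) and 34261441 (cKO), and 3490 and 3586 cells passed the filters, with medians of 4953 and 4903 UMIs per cell. In both libraries 6 cell barcodes were the same. Prickle1, the targeted gene, was read more in the cKO library. It had 96 UMIs in control cells (2.56 CPM, the gene's share of the cells' UMIs scaled to 1000000) and 265 UMIs in cKO cells (9.03 CPM), and in smooth muscle-like cells 14.8 and 24.3 CPM. These counts go against the label. The labels do not locate the deleted part, and counts of a 3-prime end outside it check nothing, so each direction below is between libraries as labelled. Epithelium-like cells were 37.6% of the cells labelled control and 3.04% of those labelled cKO.

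NK cell-like cells formed 1 of 28 clusters, with 8 of 9 NK cell markers detected, and were clustered without any Klr gene. They numbered 132 of the control cells (3.78%, 3.17 to 4.47) and 289 of the cKO cells (8.06%, 7.19 to 8.999). The difference between the libraries depended on the denominator. Among T or NK cell-like cells their share was 43.6% and 41.4%, and outside the epithelium it was 6.06% and 8.31%. The median depth of NK cell-like cells was 5033 UMIs in the control library and 4052 in the cKO library.

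The members were read mostly from NK cell-like cells, and the remainder came chiefly from dendritic cell-like and T cell-like cells and from an unnamed cluster of dividing cells. NK cell-like cells held 66.8% of the members' 3340 UMIs within cells of the control library and 70.1% of the 4481 of the cKO library. Dendritic cell-like cells held 465 and 577 UMIs, alpha beta T cell-like cells 131 and 196, and gamma delta T cell-like cells 19 and 163. The unnamed cluster, with 25 and 26 deeply read cells, held 351 and 177 and entered no comparison of classes. Summed over the 10 genes, the level in NK cell-like cells was 2980 CPM (2858 to 3107) and 2392 CPM (2309 to 2477). The next classes of the 13 that held 20 cells or more in each library were alpha beta T cell-like cells (436 and 441 CPM) and dendritic cell-like cells (267 and 303 CPM). Their intervals did not overlap those of their neighbours in this order.

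Classes that should lack the receptors set the background. The summed level was 1.85 and 2.97 CPM in epithelium-like cells, 2.11 and 5.24 in smooth muscle-like cells and 3.55 and 4.45 in fibroblast-like cells. Any member was seen in 0.635% and 1.47% of smooth muscle-like cells, whose median depths were 1899 and 1991.5 UMIs, and in 99.2% and 96.9% of NK cell-like cells. In macrophage or monocyte-like cells the summed level was 13.7 and 19.0 CPM, and 2 cells held 22 of the 32 UMIs of the cKO library. Lymphatic endothelium-like cells had 0 UMIs in 22 control cells and 48 in 12 of 75 cKO cells, and B cell-like cells had 15 and 14 UMIs, in 2 cells of each library. Droplets that hold more than 1 cell remain in these data, and their part in these few cells was not tested.

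**Figure D1:**
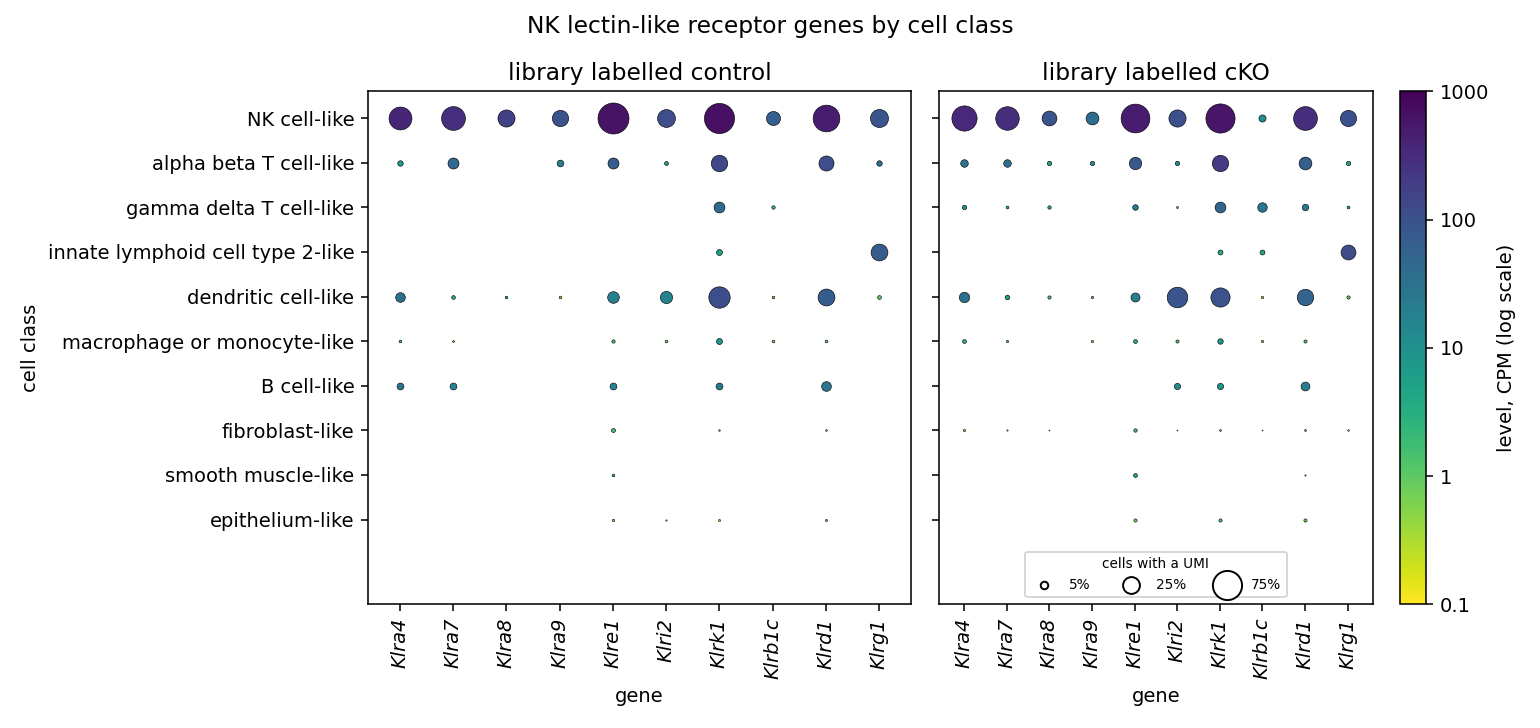
Levels of the 10 genes (colour, CPM on a log scale) and the share of cells with a UMI (point area) in 10 cell classes, for the library labelled control (left) and the library labelled cKO (right); no point means 0 UMIs. All 10 genes have points in NK cell-like cells of both libraries, Klrg1 stands almost alone in innate lymphoid cell type 2-like cells, and the Klri2 point of dendritic cell-like cells is larger in the cKO library (37.3% of cells against 13.2%).

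Counts of genes past 1.5-fold in NK cell-like cells are read against all 8281 genes at 10 CPM or more in either library, of which 10.3% were lower in the cKO library, 15.3% were higher and 25.6% passed in either direction.

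Within NK cell-like cells the activating pair split. Klra4 was read at 369 CPM (326 to 415) in the control library and 353 CPM (321 to 386) in the cKO library, a log2 ratio of cKO over control, after adding 5 CPM, of -0.06 (interval of the ratio itself -0.28 to 0.16). Klra8 was read at 167 CPM (139 to 199) and 89.9 CPM (74.4 to 108), a log2 ratio of -0.86 (-1.27 to -0.52). These Poisson intervals of the 2 libraries overlapped for Klra4 and not for Klra8, but they leave out the spread between cells described below. A UMI of Klra4 was present in 46.2% of control and 56.1% of cKO NK cell-like cells, and of Klra8 in 25.8% and 19.4%.

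The inhibitory pair split in the same manner. Klra7 was read at 283 CPM (246 to 324) and 305 CPM (275 to 336), a log2 ratio of 0.10 (-0.14 to 0.35). Klra9 was read at 93.5 CPM (72.9 to 118) and 38.1 CPM (28.3 to 50.2), a log2 ratio of -1.19 (-1.85 to -0.75). Thus 1 activating and 1 inhibitory Ly49 gene were lower past 1.5-fold in the cKO library, and the other of each pair was close to its control level. Of the other Klra genes, 7 were measured and 3 reached 10 CPM in either library: Klra1 was higher (70.8 and 120 CPM, log2 ratio 0.72), Klra3 lower (37.4 and 22.8 CPM, -0.61) and Klra5 was at 42.7 and 32.0 CPM (-0.37). The Klra3 ratio, over 28 and 30 UMIs, had an interval that included 0 (-1.50 to 0.09). Klra3 is among the genes that share 3-prime windows with Klra9.

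Klrd1, the CD94 chain, was lower in the cKO library. It was read at 474 CPM (426 to 526) and 299 CPM (270 to 330), a log2 ratio of -0.66 (-0.88 to -0.46), and was seen in 62.9% and 49.8% of NK cell-like cells. Of its partner genes, Klrc1 was at 78.8 and 75.4 CPM (-0.06) and Klrc2 at 102 and 76.9 CPM (-0.38), both within 1.5-fold. Klrc3, with 2 and 12 UMIs (2.67 and 9.14 CPM), stayed under 10 CPM and was not counted, and its log2 ratio of 0.88 had an interval from -0.39 to 4.98. H2-T23, whose product CD94 heterodimers bind, was itself lower in these cells, at 254 and 124 CPM (-1.003).

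Klrb1c, the NK1.1 gene, had the largest ratio of the 10. It had 47 UMIs in the control library (62.8 CPM, 46.1 to 83.5) and 14 in the cKO library (10.7 CPM, 5.83 to 17.9), a log2 ratio of -2.11 (-3.53 to -1.67). Of NK cell-like cells, 17.4% (11.4 to 24.99) had a UMI of it in the control library and 4.50% (2.42 to 7.57) in the cKO library. Of its relatives, Klrb1f was also lower, with 19 and 7 UMIs (-1.56), while Klrb1b was at 151 and 153 CPM (0.02). Klrb1f reached 10 CPM only in the control library, so the filter fixed its direction. Clec2d, whose product binds the related Klrb1b receptor, was at 294 and 150 CPM (-0.95), and Clec2i at 73.5 and 54.8 CPM (-0.39).

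Klrk1, Klre1, Klri2 and Klrg1 stayed within 1.5-fold between the libraries. Klrk1 was read at 688 and 594 CPM, a log2 ratio of -0.21 (-0.37 to -0.05), and Klre1 at 637 and 492 CPM, -0.37 (-0.55 to -0.20). Klri2 was read at 115 and 104 CPM, -0.13 (-0.54 to 0.27), and Klrg1 at 90.8 and 107 CPM, 0.23 (-0.19 to 0.68). The intervals of the ratio excluded 0 for Klrk1 and Klre1 and included it for Klri2 and Klrg1.

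**Figure D2:**
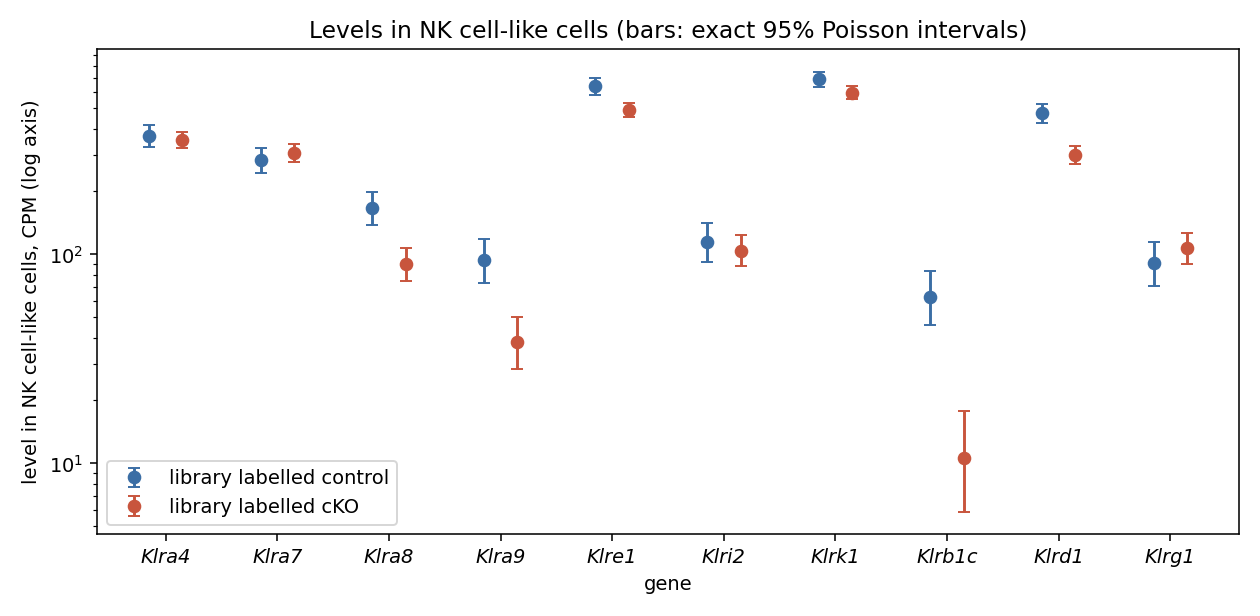
Levels of each gene in NK cell-like cells (CPM, log axis) in the library labelled control (blue, 132 cells) and labelled cKO (red, 289 cells), with exact 95% Poisson intervals. The intervals of the 2 libraries lie apart for Klra8, Klra9, Klre1, Klrb1c and Klrd1, with the cKO library lower in each, and overlap or touch for the others. They leave out the spread between cells.

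Of the 10 members, all of which reached 10 CPM in either library, 4 were lower past 1.5-fold in the library labelled cKO (Klra8, Klra9, Klrb1c and Klrd1) and 0 were higher. The background was 10.3% lower and 15.3% higher. The median log2 ratio was -0.29 over the members and 0.13 over all genes. The summed members gave a log2 ratio of -0.32 (-0.40 to -0.24). Scaling by the median of ratios in place of the total gave -0.46 for the sum.

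In chromosomal order the lower genes were not one block. Between Klra4 and Klra7 lie Klra8 and Klra9, the 2 Ly49 members that were lower, and Klrd1 lies between Klre1 and Klrk1, which were within 1.5-fold.

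**Figure D3:**
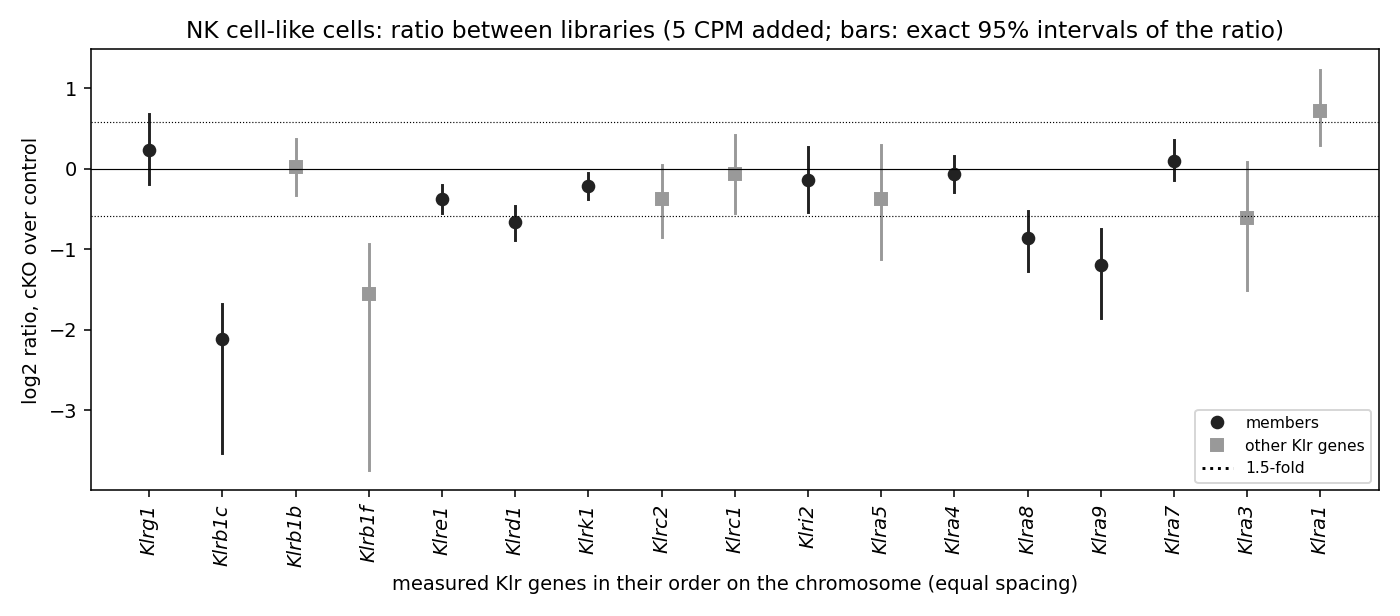
Log2 ratio of the cKO over the control library in NK cell-like cells for the 17 Klr genes at 10 CPM or more in either library, in chromosomal order at equal spacing (circles, the 10 members; squares, other Klr genes; bars, exact 95% intervals of the ratio; dotted lines, 1.5-fold). Klrb1c at -2.11 is lowest, and Klra8 and Klra9 lie below the lower dotted line between Klra4 and Klra7.

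The 4 ratios were smaller without the sub-clusters that drew most of their cells from the control library. Sub-clustering without Klr genes gave 6 groups, NK0 to NK5. NK3 was led by the interferon-response genes Cxcl10, Ifit1 and Rsad2 and held 31 control cells and 2 cKO cells. NK0, with 35 and 23 cells, was led by Gm26917 and Ccl4 and also by the epithelial genes Cldn7 and Cldn4. Without NK3 the log2 ratio was -0.84 for Klra8, -0.83 for Klra9, -2.09 for Klrb1c and -0.57 for Klrd1, and for the sum -0.16, with 3 members past 1.5-fold. Without both NK0 and NK3 these were -0.50, -0.49, -1.31, -0.56 and -0.08, so that 1 member, Klrb1c, stayed past 1.5-fold. Klra4 then stood at 261 and 339 CPM, a log2 ratio of 0.37 (0.04 to 0.73), and Klrk1 at 592 and 601 CPM (0.02). NK4, with 12 control and 76 cKO cells, was led by Cd74 and Thbs1, with H2-Aa and H2-Eb1 among its leading genes. Cd74 and H2-Aa are antigen presentation genes. No alternative left NK4 out, and the part of antigen-presenting cells or of droplets with more than 1 cell in it was not tested.

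In the 4 NK sub-clusters with at least 10 cells in both libraries, Klra8 and Klrd1 were lower in the cKO library in 4 of 4, and Klra9 and Klrb1c in 3 of 4. The sizes varied widely, with log2 ratios from -2.53 to -0.13 for Klra8 and from -2.65 to 2.00 for Klrb1c. They ran from -0.86 to 0.18 for Klra9 and from -0.51 to -0.28 for Klrd1. Klra4 and Klra7 were higher in 3 of 4. The summed members were lower in 4 of 4, by log2 ratios from -0.19 to -0.07.

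The sub-clusters also differed among themselves. NK1, led by the granzyme genes Gzme, Gzmd and Gzmc with Cdh1, had the highest Klrg1, at 217 CPM in the control library and 227 CPM in the cKO library, and both libraries pooled gave 279 CPM of Cdh1 there, a Klrg1 ligand gene. NK1 also carried the most Itga1 (435 CPM), a marker of resident NK cells. NK2, led by Nr4a2 and Klf2, had the lowest summed level of the 5 sub-clusters with over 30 cells, 1677 CPM over both libraries against 2851 to 3592, with 147 CPM of Klrd1 and 23.6 CPM of Klrg1. NK2 also carried 648 CPM of Hba-a1, a red cell gene, whose part in this was not tested. The 15 cells of NK5, led by Igf1r, Il7r, Ikzf2 and Cxcr6, had 14.3 CPM each of Klra4 and Klra7 and 0 UMIs of Klra8 beside 615 CPM of Klrk1, 372 CPM of Klre1 and 472 CPM of Klrc1. The leading genes of NK5 also include Rora and Tcrg-C4, the latter a marker used here for gamma delta T cells. Igf1r and Cxcr6 also lead the gamma delta T cell-like cluster, and the part of such cells in NK5 was not tested.

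The combination of members in single cells was compared after thinning each cell to 2000 UMIs, which kept 127 control and 261 cKO NK cell-like cells and left out 5 and 28. The mean number of the 10 members with a UMI was 3.12 per control cell and 2.75 per cKO cell. In 37.8% of control and 36.4% of cKO cells none of the 4 Ly49 members was seen, in 34.6% and 37.5% 1 was seen, and in 22.8% and 23.8% 2 were seen. All 4 together had UMIs in no cell at this depth, which allows a share of cells with UMIs of all 4, at 2000 UMIs, of up to 2.36% and 1.15%. Without thinning, all 4 had UMIs in 3 of 132 control cells (2.27%) and 5 of 289 cKO cells (1.73%), so the 0 limits detection at that depth and not expression. At 1000 UMIs the numbers were 0 and 1. In smooth muscle-like cells at the same depth Klra4, Klra7, Klra8 and Klra9 each had a UMI in 0 of 148 control and 0 of 340 cKO cells, which allows shares of cells with a UMI at that depth of up to 2.03% and 0.882%.

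**Figure D4:**
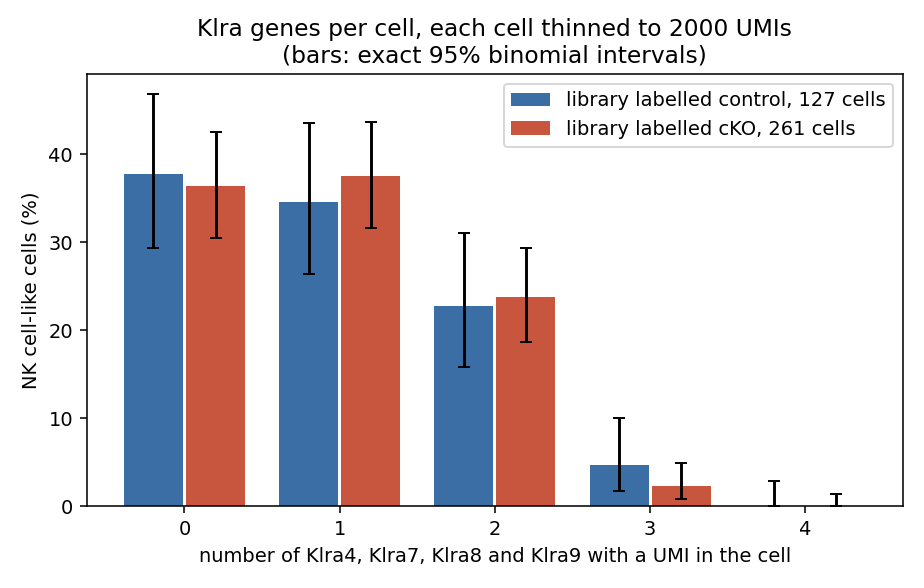
Share of NK cell-like cells (%) by the number of Klra4, Klra7, Klra8 and Klra9 with a UMI, each cell thinned to 2000 UMIs, for the library labelled control (blue, 127 cells) and labelled cKO (red, 261 cells), with exact 95% binomial intervals. The intervals of the 2 libraries overlap at every number, and no cell shows UMIs of all 4 genes at this depth.

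Among these thinned cells the counts of most members were spread more widely than counting alone gives. The variance over the mean, which is 1 for pure counting, was 2.10 and 1.56 for Klra4, 1.64 and 1.69 for Klra7, 2.18 and 1.49 for Klra8 and 1.39 and 1.19 for Klra9. Cells with 0 UMIs of Klra4 were 67.7% and 62.1%, against 54.5% and 54.0% for Poisson counts of the same mean. The spread was not particular to the Ly49 members. It was 1.68 and 1.73 for Klrd1, 1.31 and 1.88 for Klrk1, 1.24 and 1.83 for Klre1 and 1.79 and 1.08 for Klri2, against 1.07 and 1.25 for Klrg1 and 1.43 and 0.988 for Klrb1c. Klra7 was seen in 41.5% of control cells with Klra4 and 26.7% of those without, and in 45.5% and 29.6% in the cKO library. Klra9 was seen less in cells with Klra7 (5.00% and 3.23%) than in those without (14.9% and 10.1%), over 2 and 3 cells with both. The thinned share of cells with Klrb1c was 9.45% (4.98 to 15.9) and 1.53% (0.419 to 3.88), and these intervals lay apart. For Klra8 it was 18.9% (12.5 to 26.8) and 10.7% (7.25 to 15.1). For Klra9 it was 11.8% (6.76 to 18.7) and 7.66% (4.74 to 11.6). For Klrd1 it was 46.5% (37.6 to 55.5) and 34.1% (28.4 to 40.2). The intervals of Klra8, Klra9 and Klrd1 thus overlapped. The intervals of summed UMIs and of their ratios leave out the spread between cells and are too narrow for such genes.

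Dendritic cell-like cells, 159 in the control and 209 in the cKO library, carried Klri2 at unlike levels. Klri2 had 30 UMIs in the control library (17.3 CPM, 11.6 to 24.6) and 172 in the cKO library (90.4 CPM, 77.4 to 105), a log2 ratio of 2.10 (1.82 to 3.00). A UMI was present in 13.2% and 37.3% of these cells. In the cKO library the Klri2 level of dendritic cell-like cells overlapped that of NK cell-like cells, 104 CPM (87.6 to 123). Of the 5 members at 10 CPM or more in this class, 1 was higher past 1.5-fold and 0 were lower, against 17% higher and 7.71% lower among 7500 genes.

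The Klri2 difference was not carried by 1 sub-cluster. In DC6, led by Gpr183, Ccl17 and Ccl22, genes of mature or migratory dendritic cells, it was at 22.3 CPM in the control library and 167 CPM in the cKO library (5 and 93 UMIs). In DC0 it was at 18.9 and 72.2 CPM, and in DC4 at 38.1 and 79.5 CPM. In the interferon-led DC1, 45 of whose 47 cells are of the control library, it was at 24.1 CPM in the control cells. DC5 also carried Krt8 (723 CPM), Dcn (553 CPM) and Cd3e (39.2 CPM), markers of other classes. Without DC1 and DC5 the Klri2 ratio was 2.19, and without cluster 24, which held 38 control cells and 1 cKO cell, it was 2.41. Its partner chain Klre1 was at 19.0 and 19.4 CPM in the class, and Klri1, its close relative, at 10.4 and 12.6 CPM.

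Klra4 was the Ly49 member of dendritic cell-like cells. It was at 36.2 and 35.2 CPM, and Klra7, Klra8 and Klra9 were each at 5.25 CPM or less in both libraries. Klra4 made up 82.3% (75.4 to 87.9) of the UMIs of the 4 Ly49 members here, against 43.1% (40.8 to 45.5) in NK cell-like cells and 37.5% and 46.4% in the empty droplets of the 2 libraries. In DC2 and DC3, which carry Xcr1 (302 and 321 CPM), the chemokine receptor gene of cross-presenting dendritic cells, all 81 Ly49 UMIs were of Klra4. There its level was 30.5 and 92.8 CPM in DC2 and 88.4 and 134 CPM in DC3. Klra4 in DC5 was at 98.5 and 18.7 CPM. Without DC1 and DC5 the ratio of Klra4 in the class was 0.52.

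Klrk1 and Klrd1 were also read from dendritic cell-like cells. Klrk1 was at 114 and 94.6 CPM (-0.26, -0.57 to 0.03) and Klrd1 at 71.9 and 54.1 CPM (-0.38, -0.80 to -0.02). In the control library both were highest in interferon-led DC1, at 243 CPM for Klrk1 and 116 CPM for Klrd1. Without DC1 and DC5 the ratios turned to 0.52 for Klrk1 and 0.14 for Klrd1.

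**Figure D5:**
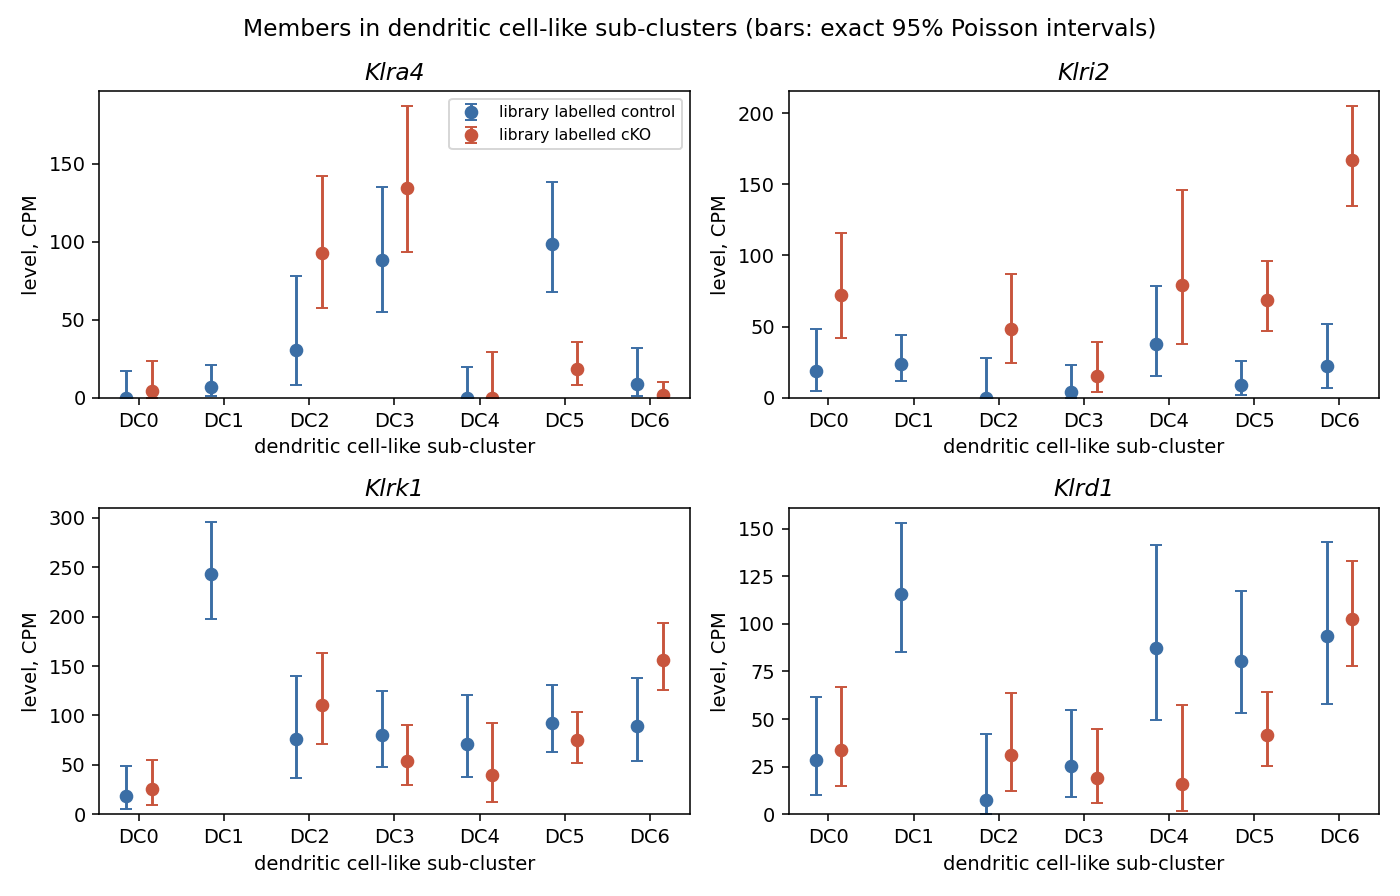
Levels (CPM) of Klra4, Klri2, Klrk1 and Klrd1 in 7 dendritic cell-like sub-clusters in the library labelled control (blue) and labelled cKO (red), with exact 95% Poisson intervals; DC1 has no red point because it holds 2 cKO cells. Klra4 is highest in DC2, DC3 and the control cells of DC5, Klri2 is higher in the cKO library in each of the 6 sub-clusters with 2 points, and Klrk1 is highest in DC1.

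Gamma delta T cell-like cells numbered 96 in the control and 291 in the cKO library and carried Klrb1c at unlike levels. It had 1 UMI in the control library (2.40 CPM) and 30 in the cKO library (26.4 CPM), a log2 ratio of 2.09 (0.87 to 8.81), in the direction opposite to NK cell-like cells. Klrk1 was at 43.2 and 52.0 CPM (0.24, -0.52 to 1.12). Klrd1 and Klre1 had 0 UMIs in the control library and 26 and 24 in the cKO library. With the control set at a floor of 3 counts over the class, the cKO levels were 3.18-fold and 2.94-fold that floor. These values leave out the counting error of the cKO UMIs. Klra4 had 0 and 11 UMIs. Of the 4 members at 10 CPM or more, 3 were higher past 1.5-fold and 0 lower, against 14.9% and 8% of 8638 genes. These 3, Klrb1c, Klrd1 and Klre1, reached 10 CPM only in the cKO library. The filter thus fixed their direction, and the count shows no excess over the shares of all genes.

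Most of these UMIs came from one sub-cluster. In gdT3, with 14 control and 34 cKO cells and led by Tgm2, Fcer1g, Ctla2a, Irf8, Cd74 and H2-Aa, all 24 Klre1, 16 of 26 Klrd1 and 10 of 11 Klra4 UMIs were found. Irf8 also leads the NK cell-like cluster, and Cd74 and H2-Aa are antigen presentation genes, of which Cd74 also leads a dendritic cell-like cluster. The sub-cluster carried 97.1 CPM of Eomes and 338 CPM of Cd3e, with 0 UMIs of Gzma and 1 of Ncr1. The part of NK cell-like or antigen-presenting cells, or of droplets with more than 1 cell, in these UMIs was not tested. Klrb1c was spread differently, with 18 of its 30 UMIs in gdT0 (39 and 172 cells) and 9 in gdT3. Without gdT3 the Klrb1c ratio was 1.75.

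Alpha beta T cell-like cells (75 and 118) carried Klrk1 at 143 and 205 CPM (0.50, -0.02 to 1.08) and Klrd1 at 113 and 63.0 CPM (-0.80, -1.62 to -0.08). Of the 8 members at 10 CPM or more, 2 were higher and 3 lower past 1.5-fold, against 19% and 15% of 8221 genes. The 2 higher, Klra4 (2 and 12 UMIs) and Klri2 (2 and 6), reached 10 CPM only in the cKO library. Of the 3 lower, Klrg1 (9 and 2 UMIs) reached it only in the control library, and Klra9 had 6 and 5 UMIs. The filter thus fixed the direction of Klra4, Klri2 and Klrg1, and the counts show no excess over the shares of all genes. The Ly49 members were read chiefly from T3, 29 cells led by Irf8, Fcer1g, Trf, Cd7 and Sft2d2, where Klra7 was at 187 CPM and Klra4 at 93.4 CPM over both libraries. Irf8, Cd7 and Sft2d2 are also among the 10 leading genes of the NK cell-like cluster. T3 carried 153 CPM of Eomes, 127 CPM of Zbtb16 and 280 CPM of Cd3e, with 3 UMIs of Gzma and 0 of Ncr1, and the part of NK cell-like cells in it was not tested. Without T3 the ratios were 0.996 for Klrk1 and -1.61 for Klrd1. T0 and T1 had 0 UMIs of the 4 Ly49 members. Klrb1c had 0 UMIs in the class.

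Innate lymphoid cell type 2-like cells (32 and 46) carried 1 member. Klrg1, a known marker of these cells, had 13 UMIs in the control library (74.0 CPM, 39.4 to 127) and 33 in the cKO library (121 CPM, 83.0 to 169), and both intervals overlapped those of NK cell-like cells. By the markers of epithelium, smooth muscle and fibroblasts in this class, up to 21.1% of its control and 50.6% of its cKO UMIs could be free RNA, against 4.49% and 4.09% in NK cell-like cells. Klrg1 itself was at 3.10 and 1.64 CPM in the empty droplets. Subtracting free RNA moved its log2 ratio from 0.67 to 1.07. Klrk1 had 1 UMI in each library, Klrb1c 1 UMI in the cKO library, and the other 7 members 0.

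The genes that work with the receptors in NK cell-like cells were counted by list. Of 15 adaptor and proximal signalling genes, 4 were lower past 1.5-fold in the cKO library and 0 higher, with a median of -0.19. Tyrobp, the adaptor of the activating Ly49 receptors, was at 554 and 257 CPM (-1.10), and Hcst, the adaptor of NKG2D, at 203 and 110 CPM (-0.85). Sh2d1b1 (-0.86) and Sh2d1b2 (-1.31) were the other 2. Sh2d1b2 (14 and 6 UMIs) reached 10 CPM only in the control library, so the filter fixed its direction. Fcer1g was at 799 and 698 CPM (-0.19). The highest ratios were 0.53 for Ptpn11, 0.17 for Vav1 and 0.07 for Inpp5d.

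Of the 13 other NK receptor genes, 6 were lower and 1 was higher past 1.5-fold, with a median of -0.32. Among the lower, the interval of the ratio included 0 for Ncr1 (25 and 26 UMIs), Slamf6 (9 and 5) and Crtam (10 and 7). Slamf6 and Crtam reached 10 CPM only in the control library. Cd226 (106 and 32.7 CPM, -1.55), Il18rap (-1.28) and Slamf6 (-0.95) were lowest, and Cd160 (0.61), Il2rb (0.49) and Tigit (0.24) highest. Of 11 transcription factors at 10 CPM or more, 3 were lower and 2 higher: Ikzf2 (-1.13), Prdm1 (-1.03), Tox (-0.63), Tbx21 (0.68) and Ets1 (0.60), while Eomes was at 349 and 369 CPM (0.08) and Nfil3 at 0.45. For Tox (25 and 26 UMIs) the interval of the ratio included 0. Prdm1 (19 and 13 UMIs) reached 10 CPM only in the control library, so the filter fixed its direction. Of 6 tissue residency genes 3 were lower, Cd69 (-1.28), Cxcr6 (-1.04) and Inpp4b (-0.66), and Itga1 (-0.27), Tnfsf10 (-0.35) and Ahr (0.19) were the others. Among genes of circulating NK cells Ly6c2 was lower (-2.01) and Itga2 higher (0.90), while Klf2 (0.57) and Itgam (-0.56) were within 1.5-fold. Ly6c2 (39 and 12 UMIs) also reached 10 CPM only in the control library, which fixed its direction. Of the 9 NK markers 3 were lower, Gzmb (-1.15), Ncr1 (-0.63, interval including 0) and Nkg7 (-0.62), and Il2rb, Txk (0.24) and Eomes were highest.

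Ligand genes were looked for in all classes. Of 18, 11 reached 10 CPM in NK cell-like cells, 2 of them lower (H2-T23 and Clec2d) and 1 higher past 1.5-fold, Ulbp1, an NKG2D ligand gene, with 8 and 25 UMIs. The interval of the Ulbp1 ratio included 0 (-0.36 to 2.19). H2-K1 (0.34) and H2-Q6 (0.27) had the next highest ratios. Of the NKG2D ligand genes, H60c was at 11.4 and 4.45 CPM in epithelium-like cells, and Ulbp1 at 19.99 and 33.8 CPM in alpha beta T cell-like cells. Raet1e was at 0.8998 and 0.742 CPM in epithelium-like cells. Cdh1, a Klrg1 ligand gene, was at 859 and 780 CPM in epithelium-like cells and 116 and 110 CPM in NK cell-like cells.

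Across 26 pairs of class and library (13 classes), the genes outside the lists of receptors, partners and regulators (cell class markers were allowed) whose log2 level was most like that of the summed members were Stat3 (Pearson r = 0.93), Ankrd44 (0.92), Txk (0.90), Kif21b (0.90) and Il21r (0.90). Cd7 was among the 2 most alike for Klra4, Klra7, Klre1 and Klrd1 (r from 0.92 to 0.96). For Klrg1 these were Gm19557 and Gata3 (0.81 each), for Klrk1 Stat3 (0.96) and Ms4a4b (0.91), and for Klri2 BC035044 (0.90) and Gpr18 (0.82). For Klra8 they were Tmsb15a (0.99) and Phactr3 (0.98), for Klra9 Nkg7 (0.98) and Baiap3 (0.96), and for Klrb1c Kcnk10 (0.88) and Clnk (0.87). The pairs share libraries and NK cell-like cells dominate them, so these values describe the pattern over classes.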

How the data were processed

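The deposited matrices hold raw UMI counts per gene and barcode, with no normalization by the authors and with empty droplets kept, per the file headers. The submitters' processing notes name Cell Ranger 6.1.1 and build mm10, while the file headers name Cell Ranger 4.

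Cells had at least 1000 UMIs, 500 genes and at most 20% mitochondrial UMIs. Clustering ran on the cells of both libraries at once, in scanpy 1.11.5 with igraph 0.11.9 (2000 variable genes without any Klr gene, 30 components, 15 neighbours, resolution 1) and named from marker lists as X-like. One deep cluster with markers of an unrelated class stayed unnamed. Scrublet's automatic threshold marked 4 of 7076 cells (0.0565%), so it did not work and doublets remain.

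UMIs were summed per class and library and scaled to CPM. Ratios add 5 CPM, which understates changes of low genes, and a 1.5-fold limit stands in for a test. Intervals are exact Poisson, Clopper-Pearson and conditional (scipy 1.17.1), the last computed on the ratio without the added 5 CPM. The ratio and the calls were tested only on simulated Poisson totals, with changes larger than 1.5-fold and without genes at low levels. These totals hold no spread between cells, so the test cannot show how the intervals cover it.

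The members, lists and markers were chosen with earlier results of these data known. All members are named, and of each list the 3 highest and 3 lowest ratios in NK cell-like cells at 10 CPM or more. The 5 genes most like the summed members and the 2 most like each member are also named. Alternatives changed the scaling, the added CPM, the cell filters, thinning, free RNA, doublets and the definition of classes. No amino acid sequences were used here. The value of 1 gene of the circulating NK cell list is not reported here.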

Additional observations from a re-analysis of the deposited data

Results flagged for a closer look

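For 7 comparisons the ratio intervals of 2 classes of at least 50 cells in each library excluded 0 on opposite sides. With 1 library per group these differences between classes were not tested, and the values below are gaps between 2 log2 ratios. Klrb1c was higher in the cKO library in gamma delta T cell-like cells and lower in NK cell-like cells, a gap of 4.2. It had 1 and 30 UMIs in the former class and 47 and 14 in the latter, control first. Klrd1 was higher in gamma delta T cell-like cells and lower in NK cell-like cells (gap 3.14), dendritic cell-like cells (2.86) and alpha beta T cell-like cells (3.28). Klre1 was higher in gamma delta T cell-like and lower in NK cell-like cells, a gap of 2.76. All control UMIs of Klrd1 and Klre1 in gamma delta T cell-like cells were 0, so these gaps depend on the 5 CPM added. The summed members were higher in gamma delta T cell-like cells (gap 1.87) and in dendritic cell-like cells (gap 0.50) and lower in NK cell-like cells.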

How the results depend on the processing

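No paired analysis was possible because each group has 1 library, and for the same reason no replicate could be left out. The summed members in NK cell-like cells stayed lower in the cKO library under all 13 alternatives, with log2 ratios from -0.46 to -0.08. They moved out of the counting interval of the main value (-0.32) with median of ratios scaling (-0.46), with clusters at resolution 2.0 (-0.24), without NK3 (-0.16) and without NK0 and NK3 (-0.078). The leave-outs of sub-clusters and of cluster 24, and the addition of the unnamed cluster, were chosen after seeing the data. The number of members past 1.5-fold was 4 in the main analysis, ranged from 1 to 4 over 14 alternatives and was 1 without NK0 and NK3. The log2 ratio of the share of NK cell-like cells was 1.09 over all cells, 0.46 over cells outside the epithelium, and turned to -0.073 over T or NK cell-like cells. Mean members per cell differed by -0.36 at 2000 UMIs, -0.33 at 1000 UMIs and -0.57 without thinning. Of 226 alternative values of single genes and lists, 211 stayed within the counting interval of the main value (0.1 either way for medians of lists) and 15 did not. In all, 17 values, over 8 pairs of gene and class, changed sign. For 15 of these the main interval included 0, among them Klrk1 in dendritic cell-like cells without DC1 and DC5 (0.52) and without cluster 24 (0.27), Klra4 in NK cell-like cells without NK0 and NK3 (0.37) and Klrk1 in gamma delta T cell-like cells without the highest Scrublet scores (-0.23). For the other 2 it excluded 0: Klrk1 in NK cell-like cells without NK0 and NK3 (0.023) and Klrd1 in dendritic cell-like cells without DC1 and DC5 (0.14). The causes of these moves were not tested. Gated by marker UMIs, 135 control and 278 cKO cells were taken, of which 115 and 248 were NK cell-like by cluster, and 4 members passed 1.5-fold. Depth limits the rarest members most: Klrb1c in NK cell-like cells rests on 47 and 14 UMIs.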

Other observations

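Some relatives of the members were read outside NK cell-like cells. Klri1, the close relative of Klri2, had 10.4 CPM in the control and 12.6 CPM in the cKO library in dendritic cell-like cells, and 0 and 1.52 CPM in NK cell-like cells. Klra17 was at 29.3 and 14.2 CPM in dendritic cell-like cells and 1.34 and 1.52 CPM in NK cell-like cells. Klra2 was at 5.57 and 5.93 CPM in macrophage or monocyte-like cells, with 0 and 1 UMIs in NK cell-like cells. Klrb1b was at 28.8 and 78.4 CPM in gamma delta T cell-like cells and at 151 and 153 CPM in NK cell-like cells.

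The unnamed cluster of dividing cells, led by Mki67, Top2a and Gzma, held 25 control and 26 cKO cells at a median of 17629 UMIs. It entered no comparison of classes. The members summed to 828 CPM in its control cells and 357 CPM in its cKO cells. Klra8 had 25 and 2 UMIs there, Klrd1 78 and 23, Klrk1 87 and 36, and Klra7 37 and 43.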
